A study of Drosophila melanogaster with 3 samples.

Results

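The 10 genes described here mark or serve the somatic cells of the *Drosophila melanogaster* testis apex: *tj*, *eya*, *so*, *zfh1*, *Fas3*, *hh*, *ptc*, *spi*, *stet* and *Egfr*. The rule that picks their probes uses no measured value, although the genes were proposed with earlier results of these data known. Every noncontrol probe whose transcript name carries the locus tag of a member was taken, which gave 21 of the 32162 probes: 4 each for *zfh1*, *Fas3* and *Egfr*, 2 each for *so* and *ptc*, and 1 each for *tj*, *eya*, *hh*, *spi* and *stet*. *tj*, *eya*, *spi* and *Fas3* lie on chromosome arm 2L, *so*, *ptc* and *Egfr* on 2R, *stet* on 3L, and *hh* and *zfh1* on 3R.

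RNA came from wild-type OreR flies, the background that all groups share. The samples were the apical tip of testes of flies aged 2 to 4 days by the label, with the outer sheath removed, the male thorax and the female thorax, the last 2 without legs and wings. Each tissue had 4 arrays, each hybridized with its own pool of dissected tissue, so that a value averages over many flies and, in the testis tip, over every cell type left in the dissection. The members show how much of their RNA the dissected tips held, beside thorax, a somatic tissue with neither hub nor cyst cells. The labels give no age for the thorax flies. The methods of the study give mated flies and a wider age range for all dissections.

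At the apex of the fly testis a cluster of somatic hub cells signals to the stem cells around it. Germline stem cells give rise to spermatogonia and spermatocytes, and cyst stem cells give rise to the somatic cyst cells that enclose them. Transcription factors encoded by *tj* and *zfh1* are known from cyst stem cells and early cyst cells and those encoded by *eya* and *so* from later cyst cells, Fas3 is an adhesion protein that outlines the hub, Hedgehog from the hub acts on Patched in cyst stem cells, and germ cells send the ligand Spitz, activated by the rhomboid protease Stet, to the Egfr of cyst cells. Nearly all of these genes also act in other tissues, thorax included.

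The values below are log2 signals relative to the 75th percentile of the array, so that 0 is as bright as the probe at that percentile and each unit is a factor of 2. They compare 1 probe between arrays, and the level of a probe was not set against that of another. A probe was called changed at an adjusted p under 0.05 in limma, with p-values adjusted over all 32162 probes. The p-values measure the spread between arrays of separate RNA pools. By the scanner software's call, a testis tip array had 56.7% to 73.9% of its probes well above background and a thorax array 63.6% to 73.3%. The 3 slides did not hold the tissues evenly: slide A held thorax arrays 1 and 2 of both sexes, slide B testis tip arrays 1 and 2 with male thorax arrays 3 and 4, and slide C testis tip arrays 3 and 4 with female thorax arrays 3 and 4.

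Testis tip array 1 stood apart from the other 3 tips. Its mean correlation with them was 0.810, whereas each of the others averaged 0.932 with the rest of its group. Of the 21 member probes, 10 were more than 1 log2 unit above the mean of the other tips on this array and 8 were more than 1 below it, of which 5 were more than 3 below. Those 5 readings lay between -8.79 and -8.61, under the lowest signal well above background on that array, -6.52. Probes of the same transcript could lie on opposite sides of the other tips. *ptc* RA probe 1 read 0.02 on array 1 and between -2.25 and -2.02 on the other tips, while *ptc* RA probe 2 read -8.79 on array 1 and between -2.86 and -2.71 on the others. Over all probes 30.1% were more than 1 above and 13.9% more than 3 below. Values without this array stand beside the results that it moves.

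The scaling also bears on every change. The median change over all probes was -1.03 between testis tip and male thorax and -1.08 between testis tip and female thorax. Without scaling between arrays those medians were 1.31 and 1.57, and after quantile normalization -0.16 and -0.21. A member with a change near 0 after scaling was thus above the median probe. Of the probes called, 32.9% were higher in the testis tip than in male thorax after scaling, 71.0% without scaling and 44.5% after quantile normalization; against female thorax these shares were 30.4%, 75.2% and 43.4%.

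Of the 21 member probes, 2 were called higher and 10 lower in the testis tip than in male thorax, beside 68.7% of all probes called in either direction, 22.6% higher and 46.1% lower. Against female thorax 4 were called higher and 10 lower, beside 73.4% of all probes, 22.3% higher and 51.1% lower. Without testis tip array 1 the counts were 2 higher and 13 lower against male thorax, beside 77.1% of all probes called (27.4% higher and 49.8% lower), and 6 higher and 12 lower against female thorax, beside 81.3% (27.0% higher and 54.3% lower). The share of member probes called was thus no larger than among all probes in the comparisons with all arrays. With 1 probe a gene, the brightest, 2 of 10 genes were higher and 2 lower against male thorax, beside 75.1% of 12539 genes called (34.7% higher and 40.5% lower), and 4 were higher and 2 lower against female thorax, beside 76.1% (34.1% higher and 42.0% lower). The brightest probe had the highest mean log2 signal over the 12 arrays before scaling, when the testis tip arrays were brighter than the thorax arrays. Between male and female thorax none of the 21 probes was called by limma, none had an unadjusted p under 0.05, and 0.373% of all probes were called. *tj* was the only member whose male and female thorax arrays did not overlap, with a change of -1.32 (adjusted p = 0.979), beside 12.1% of all probes. The median change of the 10 brightest probes was -0.05 against male thorax and -0.29 against female thorax, beside -0.39 and -0.47 over the brightest probes of all genes. The arrays did not overlap for 12 of the 21 probes between testis tip and male thorax and for 13 between testis tip and female thorax, beside 66.0% and 64.0% of all probes.

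**Figure D1:**
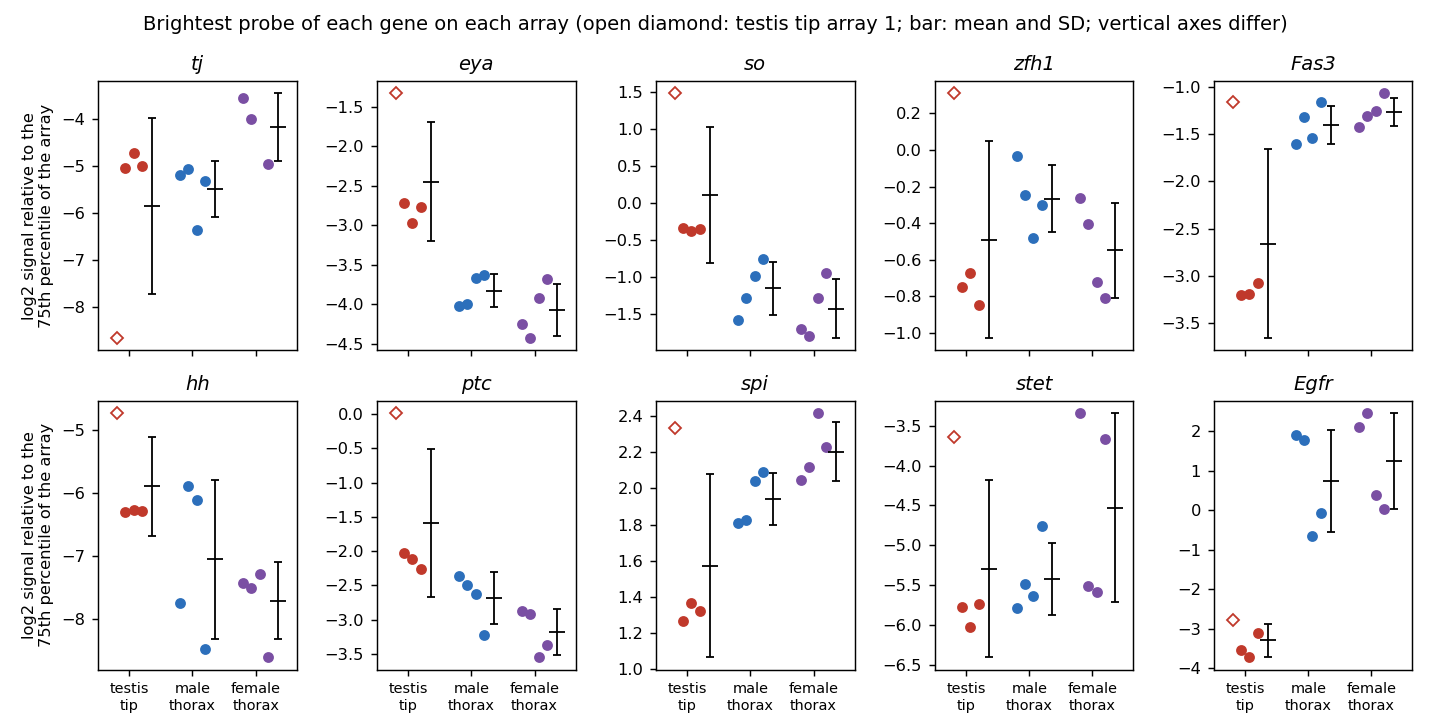
Log2 signal of the brightest probe of each gene, relative to the 75th percentile of the array, on the 4 testis tip, 4 male thorax and 4 female thorax arrays (*tj* has 3 female values), with mean and SD beside the points. *eya* and *so* lie higher on all 4 testis tip arrays than on any thorax array and *Egfr* lower, and the open diamond, testis tip array 1, lies apart from the other tips in most panels.

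Among the transcription factors, *eya* and the brighter *so* probe were higher in the testis tip, while *tj* and the brightest *zfh1* probe were not called in either comparison. *eya* encodes a protein phosphatase and coactivator that works together with the homeodomain protein of *so*, first described in the eye. Its single probe, for transcript RB, read -1.33, -2.71, -2.97 and -2.77 on the 4 testis tip arrays, against -4.02, -3.997, -3.66 and -3.63 in male thorax and -4.25, -4.42, -3.92 and -3.68 in female thorax. Every tip was above every thorax array, and the thorax arrays of the sexes overlapped. The change was 1.38 (SE 0.36, adjusted p = 0.00451, 2.60-fold) against male thorax and 1.62 (SE 0.36, adjusted p = 0.00156, 3.08-fold) against female thorax. Without testis tip array 1 it was 1.01 (adjusted p = 0.00106) and 1.25 (adjusted p = 0.00023). The direction held under all 3 scalings, and *eya* was well above background on all 12 arrays. With the background corrected by normexp on the median spot signal, it was 0.89 and 0.43 higher and was not called (adjusted p = 0.131 and 0.453).

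*so* has 2 probes for transcript RA, and they changed in opposite directions. Probe 1 read 1.49, -0.33, -0.37 and -0.35 in the testis tip, against -1.59, -1.28, -0.99 and -0.76 in male thorax and -1.71, -1.79, -1.28 and -0.94 in female thorax. The tips were again above all thorax arrays, and the change was 1.26 (SE 0.43, adjusted p = 0.0201) against male thorax and 1.54 (SE 0.43, adjusted p = 0.00694) against female thorax, or 0.80 and 1.08 without array 1 (adjusted p = 0.0142 and 0.00264). Without male thorax array 1 the change against male thorax was 1.12 (adjusted p = 0.0578). Without scaling the probe was 3.61 and 4.19 higher. Probe 2 was well above background on none of the 4 testis tip arrays, on 3 of 4 male thorax arrays and on 2 of 4 female thorax arrays. Its measured means were -8.50 ± 0.71 in the testis tip, -5.38 ± 0.96 in male thorax and -6.12 ± 0.87 in female thorax (SD, n = 4 each). Set against the lowest signal well above background on each tip array, it was at least 2.69-fold lower in the testis tip than in male thorax and at least 1.62-fold lower than in female thorax. The measured changes, not these bounds, had adjusted p = 0.000379 and 0.00266 in limma. Without scaling its change was -0.78 against male thorax and 0.27 against female thorax, neither called. The mean over both probes was lower in the testis tip, by -0.93 against male thorax and by -0.42 against female thorax, and so the direction given for *so* rests on the choice of probe.

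*tj* encodes a large Maf factor that is among the defining markers of early cyst cells. Its probe read -8.66, -5.05, -4.73 and -5.00 in the testis tip, against -5.20, -5.07, -6.38 and -5.33 in male thorax and -3.56, -4.01 and -4.97 in female thorax, where the spot of array 3 was set aside by the outlier flag and the fit used 3 values. It was well above background on 3 arrays of each tissue. The tips overlapped with both thoraxes, and the changes were -0.37 (SE 0.80, adjusted p = 0.693) against male thorax and -1.68 (SE 0.87, adjusted p = 0.102) against female thorax. Without array 1 the other 3 tips lay above all 4 male thorax arrays, and 2 of them below the lowest female value, and the changes were 0.57 (adjusted p = 0.208) and -0.75 (adjusted p = 0.126). Without scaling they were 1.98 and 1.00, and after quantile normalization 0.86 and -0.56, none of them called. Without array 1 and without scaling *tj* was 2.91 higher than in male thorax (adjusted p = 0.000315) and 1.93 higher than in female thorax (adjusted p = 0.00749), and without array 1 after quantile normalization 1.74 (adjusted p = 0.00262) and 0.32 (adjusted p = 0.518). A call for *tj* thus depended both on the scaling and on testis tip array 1.

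*zfh1*, which encodes a zinc finger and homeodomain repressor needed in cyst stem cells and also present in muscle precursors and heart, has 4 probes. The brightest, RC probe 1, read 0.31, -0.75, -0.67 and -0.85 in the testis tip, against -0.03, -0.25, -0.48 and -0.30 in male thorax and -0.26, -0.40, -0.72 and -0.81 in female thorax. Its change was -0.22 (SE 0.29, adjusted p = 0.498) against male thorax and 0.06 (SE 0.29, adjusted p = 0.86) against female thorax. RC probe 2 changed by -0.22 and 0.10, and neither of these probes was called. Without testis tip array 1 both were below male thorax, having changed by -0.49 (adjusted p = 0.028) for probe 1 and by -0.50 (adjusted p = 0.0391) for probe 2. Without scaling both were higher in the testis tip, by 2.12 and 2.13 against male thorax. RC probe 3 read -8.74 on array 1 and between -1.85 and -1.75 on the other tips, and without array 1 it was 1.04 above female thorax (adjusted p = 0.0188) and 0.77 above male thorax (adjusted p = 0.0651).

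The probe for *zfh1* transcript RB behaved unlike the RC probes. It read -8.69, -5.63, -7.09 and -6.87 in the testis tip, against -2.71, -2.90, -2.55 and -2.35 in male thorax and -2.78, -2.45, -2.60 and -2.24 in female thorax. It was well above background on 1 of 4 testis tip arrays and on all 8 thorax arrays. The change was -4.44 (SE 0.51, adjusted p = 7.62e-06) against male thorax and -4.55 (SE 0.51, adjusted p = 6.23e-06) against female thorax, and -3.90 and -4.01 without array 1. It was also negative without scaling (-2.10 and -1.90, adjusted p = 0.00298 and 0.00549). With 3 of the 4 tip readings not well above background, its size is not well measured. The difference in change between the RB and RC probes was not itself tested.

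**Figure D2:**
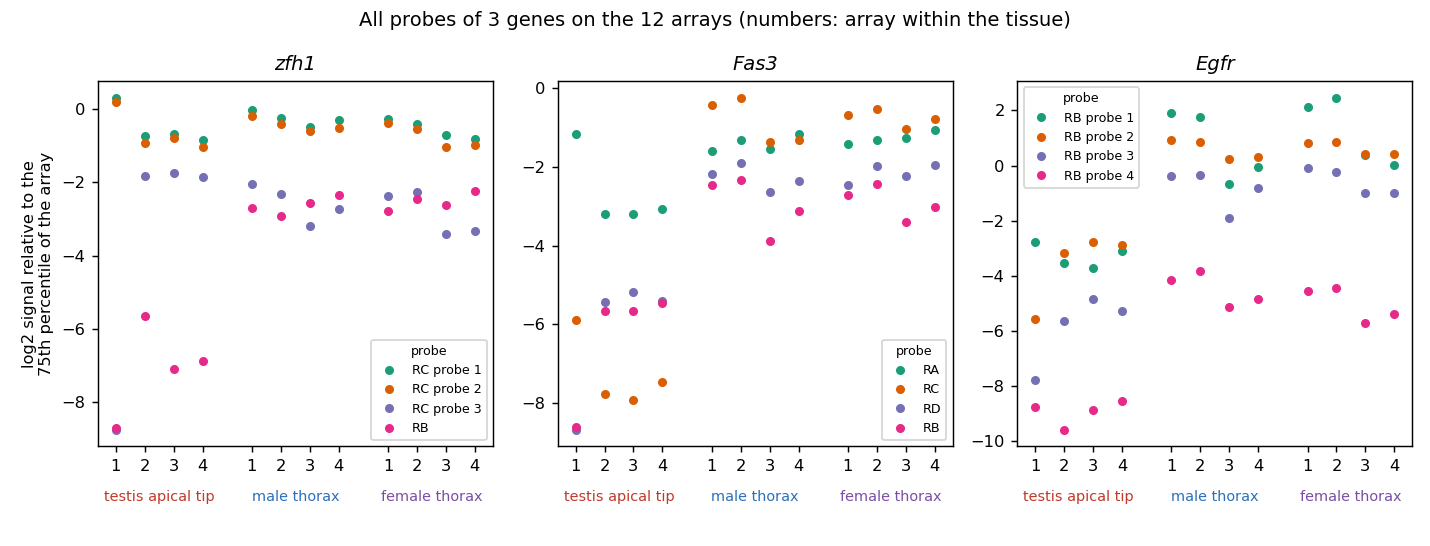
Log2 signal of all 4 probes of *zfh1*, *Fas3* and *Egfr*, relative to the 75th percentile of the array, on the 4 testis tip, 4 male thorax and 4 female thorax arrays; each colour is a probe. The RB probe of *zfh1*, the RC probe of *Fas3* and all *Egfr* probes lie well below their thorax values on every testis tip array, while RC probes 1 and 2 of *zfh1* do not separate the tissues.

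Fas3, the immunoglobulin-family adhesion protein of the hub, is made in many epithelia. All 4 of its probes were lower in the testis tip in both comparisons after scaling, the RA probe in neither without it. The brightest, for transcript RA, read -1.16, -3.20, -3.19 and -3.08 in the testis tip, against -1.60, -1.32, -1.54 and -1.16 in male thorax and -1.43, -1.31, -1.26 and -1.07 in female thorax. Array 1 lay within the thorax range and the other 3 tips below it. The change was -1.25 (SE 0.41, adjusted p = 0.0185) against male thorax and -1.39 (SE 0.41, adjusted p = 0.0106) against female thorax, and -1.75 and -1.89 without array 1 (adjusted p = 1.86e-06 and 9.75e-07). Leaving out testis tip array 2, 3 or 4 gave -1.07, -1.07 and -1.11 against male thorax (adjusted p = 0.0560, 0.0565 and 0.0522). The changes were close to that of the median probe, and they were -0.44 and -0.66 after quantile normalization (adjusted p = 0.377 and 0.192) and 1.09 and 1.26 without scaling (adjusted p = 0.0595 and 0.0325).

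The RC probe of *Fas3* was well above background on 1 of 4 tips and on all 8 thorax arrays. It read -5.88, -7.76, -7.93 and -7.47 in the testis tip, against -0.42, -0.24, -1.37 and -1.32 in male thorax and -0.68, -0.52, -1.03 and -0.79 in female thorax. The change was -6.42 (SE 0.45, adjusted p = 1.01e-07) against male thorax and -6.50 (SE 0.45, adjusted p = 8.92e-08) against female thorax, and -6.88 and -6.96 without array 1. Its size rests on tip readings of which 3 were not well above background. The RD probe, well above background on 3 of 4 tips, was 14.9-fold lower than in male thorax and 16.1-fold lower than in female thorax, and 8.36-fold and 9.04-fold lower without array 1. The RB probe, likewise on 3 of 4 tips, was 10.6-fold and 10.97-fold lower, and 6.28-fold and 6.51-fold without array 1. Without scaling RC was still called lower (-4.08 and -3.85), whereas RD (-1.56 and -1.36, adjusted p = 0.0613 and 0.0954) and RB (-1.06 and -0.80, adjusted p = 0.198 and 0.323) were not called. The RA probe was the only one of the 4 that was well above background on every tip.

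In the Hedgehog pathway the ligand and the receptor were both higher in the testis tip than in female thorax, and neither was called against male thorax after scaling to the 75th percentile, though both were under the other 2 scalings. *hh* encodes the secreted ligand, which the hub is known to make. Its RB probe read -4.73, -6.31, -6.27 and -6.29 in the testis tip, against -7.75, -5.89, -6.11 and -8.48 in male thorax and -7.43, -7.52, -7.29 and -8.62 in female thorax. It was well above background on 3 of 4 testis tip arrays and on none of the 8 thorax arrays, although 2 male thorax readings were above those of 3 tips. Against male thorax the change was 1.16 (SE 0.61, adjusted p = 0.108). Against female thorax it was 1.81 (SE 0.61, adjusted p = 0.019), and 1.42 without array 1 (adjusted p = 0.0482). Against male thorax it was 2.44 after quantile normalization (adjusted p = 0.00585) and 3.50 without scaling (adjusted p = 0.000299). Without male thorax array 2 the change against male thorax was 1.55 (adjusted p = 0.0462), and without female thorax array 4 that against female thorax was 1.51 (adjusted p = 0.0547). With the normexp background both turned below 0, to -0.61 and -1.43 (adjusted p = 0.426 and 0.0688). No thorax reading was well above background. The testis tip mean, -5.90, lay below the lowest signal well above background on the female thorax arrays, -5.79 on average. No fold can therefore be stated over female thorax, and the call there rests on measured signals under that level. The bound over male thorax was 1.11-fold with array 1 and could not be set without it, for a change that was not called after scaling to the 75th percentile.

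*ptc* encodes the Hedgehog receptor and is itself a target of the pathway, so that its RNA is known to rise where the ligand acts. Probe 1 for transcript RA read 0.02, -2.02, -2.12 and -2.25 in the testis tip, against -2.37, -2.50, -2.63 and -3.23 in male thorax and -2.87, -2.92, -3.55 and -3.37 in female thorax. Every tip was above every thorax array. The change was 1.09 (SE 0.47, adjusted p = 0.0575) against male thorax and 1.58 (SE 0.47, adjusted p = 0.0102) against female thorax, and 0.55 (adjusted p = 0.061) and 1.05 (adjusted p = 0.00269) without array 1. The difference from male thorax was called with slide as a term in the fit (1.55, adjusted p = 0.0173) and without testis tip array 4 (1.31, adjusted p = 0.0396), and that from female thorax was not called with the normexp background (0.74, adjusted p = 0.207). Probe 2 changed by -0.29 and 0.51 (adjusted p = 0.836 and 0.713) with array 1, and by 1.22 (adjusted p = 0.0504) and 2.01 (adjusted p = 0.00444) without it. The direction of probe 1 was the same under all 3 scalings, and against male thorax it was called after quantile normalization (1.82, adjusted p = 0.00115) and without scaling (3.43, adjusted p = 6.75e-05).

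Of 18 other genes of Hedgehog production, transport and response, 17 were matched on the array, all well above background on all 12 arrays. With their brightest probes, 3 were called higher and 8 lower in the testis tip, in the comparison with male thorax as in that with female thorax, and their median change was -0.67 and -0.57. Of the brightest probes of all genes, 34.7% were called higher and 40.5% lower than male thorax, and 34.1% and 42.0% than female thorax. The counts without testis tip array 1 were 3 and 11 in both comparisons. Of all probes, not only the brightest, 27.4% were then called higher and 49.8% lower than male thorax, and 27.0% and 54.3% than female thorax. The 3 that were higher were *slmb*, a substrate receptor of a ubiquitin ligase that acts on the pathway's transcription factor (2.87 and 2.94), *Su(fu)*, which holds that factor back (2.15 and 2.14), and *ttv*, an enzyme of heparan sulfate synthesis (1.00 and 1.24). Those that were lower included *dally*, a heparan sulfate proteoglycan (-4.93 and -4.31), *Pka-C1*, the kinase that marks the factor for processing (-4.87 and -4.13), *boi*, a co-receptor (-3.69 and -4.69), *shf*, a secreted factor for ligand spread (-3.65 and -3.81), and *ci*, the transcription factor itself (-2.32 and -2.44). Without scaling 4 of the 8 turned above 0 (*smo*, *ci*, *botv* and *CkIalpha*), whereas *dally*, *Pka-C1*, *boi* and *shf* remained below 0 and the 3 higher genes above it. *smo*, the signal transducer downstream of Patched, changed by -1.54 and -1.57 after scaling.

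On the epidermal growth factor side the receptor was lower in the testis tip on all its probes, and the ligand *spi* and the protease *stet* were not called. *Egfr* has 4 probes, all for transcript RB. The brightest read -2.79, -3.55, -3.73 and -3.12 in the testis tip, against 1.91, 1.77, -0.65 and -0.06 in male thorax and 2.12, 2.47, 0.38 and 0.02 in female thorax. All tips lay below all thorax arrays, and the thorax arrays of slide A were above those of slides B and C, at means of 2.07 and -0.08. The change was -4.04 (SE 0.69, adjusted p = 0.000238) against male thorax and -4.54 (SE 0.69, adjusted p = 9.37e-05) against female thorax. With slide as a term it was -2.93 and -3.50, and on the shared slide alone -2.81 and -3.62.

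The other 3 *Egfr* probes moved the same way. Probe 2 changed by -4.19 and -4.24 and probe 3 by -5.03 and -5.31 against male and female thorax, both with arrays that did not overlap. Probe 1 changed by -4.21 and -4.71 without testis tip array 1. Probe 2 was 18.3-fold and 18.9-fold lower, and 11.6-fold and 12.01-fold without that array, and probe 3 was 32.6-fold and 39.6-fold lower, and 20.9-fold and 25.4-fold without it. Probe 4 was well above background on none of the tips, with measured means of -8.95 ± 0.45 in the testis tip, -4.49 ± 0.60 in male thorax and -5.03 ± 0.62 in female thorax (SD, n = 4 each). After scaling it was at least 5.002-fold lower than in male thorax and at least 3.43-fold lower than in female thorax. Its measured changes without scaling were smaller than these bounds, -2.12 and -1.26 in log2. The measured changes, not these bounds, had adjusted p = 8.64e-07 and 2.77e-06 in limma. All 4 probes were also below thorax without scaling and after quantile normalization. Unscaled, probe 1 was -1.70 against male thorax (adjusted p = 0.0577) and -1.89 against female thorax (adjusted p = 0.0365). It was well above background on all 4 tips.

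*spi* encodes a transforming growth factor alpha-like ligand that is made in most tissues. Its RD probe read 2.33, 1.27, 1.36 and 1.32 in the testis tip, against 1.81, 1.83, 2.04 and 2.09 in male thorax and 2.05, 2.12, 2.42 and 2.23 in female thorax. The change was -0.37 (SE 0.27, adjusted p = 0.232) against male thorax and -0.63 (SE 0.27, adjusted p = 0.0511) against female thorax. Without array 1 the remaining tips were below every thorax array, by 0.62 (adjusted p = 0.00277) and 0.88 (adjusted p = 0.000248) on average. After quantile normalization *spi* was also lower (-0.66 and -0.85, adjusted p = 0.00824 and 0.00164), and without scaling *spi* was 1.97 and 2.02 higher in the testis tip (adjusted p = 0.00029 and 0.00024).

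*stet*, the rhomboid protease that acts in germ cells, read -3.64, -5.78, -6.03 and -5.74 in the testis tip, against -5.79, -5.49, -5.64 and -4.76 in male thorax and -3.34, -5.52, -5.59 and -3.67 in female thorax. Within female thorax the arrays spread over more than 2 log2 units. The changes were 0.12 (SE 0.64, adjusted p = 0.868) and -0.77 (SE 0.64, adjusted p = 0.293), with array 1 the highest of the tips, and -0.43 (adjusted p = 0.481) and -1.32 (adjusted p = 0.0459) without it. *stet* was well above background on 4 testis tip, 3 male thorax and 2 female thorax arrays. Without scaling it was called higher in the testis tip, by 2.47 against male thorax (adjusted p = 0.00816) and by 1.88 against female thorax (adjusted p = 0.0324), and after quantile normalization it was not called (1.49 and 0.40).

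**Figure D3:**
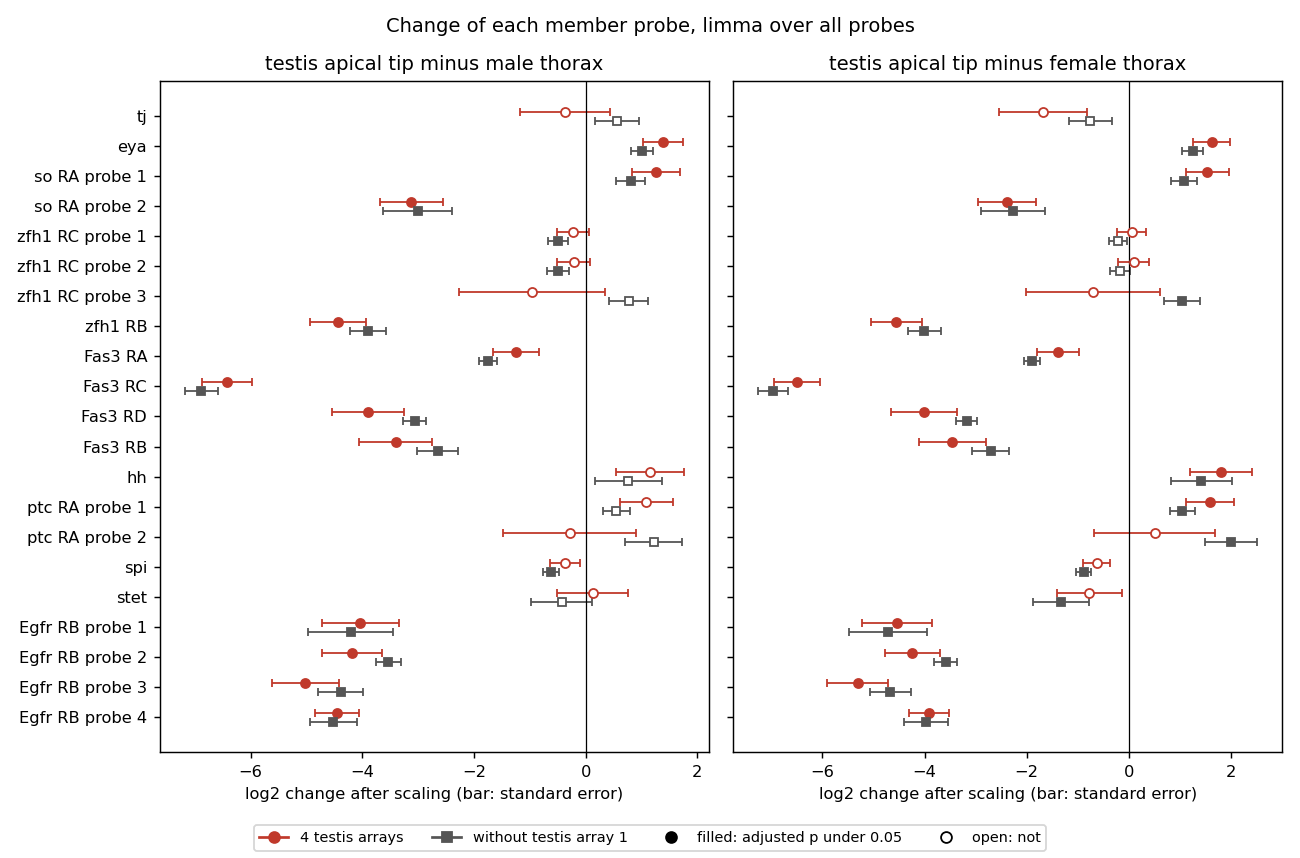
Log2 change of each of the 21 member probes between the testis tip and male thorax (left) and between the testis tip and female thorax (right), with standard errors from limma; circles use all 12 arrays, squares leave out testis tip array 1, and filled symbols mark an adjusted p under 0.05. *eya* and *so* RA probe 1 are filled on the right of 0 in both panels, and the RB probe of *zfh1* and the *Fas3* and *Egfr* probes on the left.

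The 22 other genes of the pathway were all measured. With their brightest probes 6 were higher and 13 lower in the testis tip than in male thorax, and 6 higher and 12 lower than in female thorax, with median changes of -1.27 and -1.10, beside the same 34.7% higher and 40.5% lower of all genes against male thorax and 34.1% and 42.0% against female thorax. They were 6 and 14 in both without testis tip array 1. Beside them stood 27.4% higher and 49.8% lower of all probes against male thorax and 27.0% and 54.3% against female thorax. *S*, which encodes Star, the chaperone that carries the Spitz precursor to the rhomboid proteases, was higher, between -0.06 and 1.19 on the testis tip arrays, against -4.80 to -3.11 in male thorax and -4.82 to -3.36 in female thorax (changes 4.02 and 4.29, adjusted p = 7.3e-06 and 4.1e-06). The other genes that were higher act inside the receiving cell: the adaptor *drk*, the exchange factor *Sos*, the kinase *Raf*, its scaffold *ksr* and the ubiquitin ligase *Cbl*, with changes between 0.54 and 1.75. Among those that were lower were the ligands *vn* (-4.65 and -4.06) and *grk* (-6.90 and -6.51), the secreted inhibitor *aos* (-3.29 and -3.35), the mitogen-activated protein kinase *rl* (-3.38 and -3.44) and the repressor *aop* (-3.77 and -3.63, from 3 testis tip arrays after 1 spot was set aside). Without scaling 6 of the 13 genes lower than male thorax turned above 0 and 6 of the 12 lower than female thorax, but none of these 5 did. *rho*, the founding rhomboid protease, was called in neither comparison (0.21 and -0.24).

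Another 14 genes known from hub and cyst cells, all well above background on all 4 tips, were split between higher and lower. Against male thorax 6 were higher and 5 lower, and against female thorax 7 were higher and 5 lower, with median changes of 0.45 and 0.64. The counts against male thorax lay near the 34.7% higher and 40.5% lower of all genes. Beside those against female thorax stood 34.1% higher and 42.0% lower of all genes. Without testis tip array 1 the counts were 7 and 5 against male thorax and 8 and 5 against female thorax. The shares of all probes were then 27.4% higher and 49.8% lower against male thorax and 27.0% and 54.3% against female thorax. *esg*, a Snail-family factor of hub and stem cells, read between -0.63 and 1.00 in the testis tip, against -5.46 to -4.10 in male thorax and -5.60 to -4.52 in female thorax, a change of 4.47 and 4.83 (adjusted p = 2.6e-06 and 1.3e-06). *chinmo*, a BTB zinc finger protein needed in cyst stem cells, was higher by 3.42 and 4.03, *Wnt2*, which encodes a secreted ligand, by 2.70 and 2.53 and *ken*, a repressor in cyst stem cells, by 1.69 and 1.80. *upd1*, the hub's ligand for the JAK-STAT pathway, was well above background on all 4 testis tip arrays and on none of the 8 thorax arrays. It was at least 2.10-fold above male thorax and at least 1.63-fold above female thorax, or at least 1.47-fold and 1.13-fold without testis tip array 1. The measured changes, not these bounds, had adjusted p = 0.00044 and 0.022 in limma. *Sox100B*, a Sox factor of the male gonad, was 2.26 higher than in male thorax and at least 4.70-fold higher than in female thorax, where the measured change had adjusted p = 5.5e-06 in limma. *dome*, the receptor for Upd, was higher only in the comparison with female thorax, the difference between the comparisons not being tested. All of these were above thorax under all 3 scalings.

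The 5 hub and cyst genes that were lower were *Stat92E*, *Socs36E*, *Lar*, *Imp* and *CadN*. *Stat92E*, the pathway's transcription factor, changed by -3.63 and -3.91, and *Socs36E*, its feedback inhibitor, by -2.47 and -2.58. Without scaling *Stat92E* remained lower (-1.29 and -1.26), *Socs36E* was close to 0 (-0.12 and 0.08), and *Lar*, *Imp* and *CadN* were not below thorax in either comparison. *shg*, which encodes the E-cadherin that holds stem cells to the hub, was not called with all arrays (0.25 and 0.46) and was 1.19 and 1.39 higher without array 1 (adjusted p = 1.6e-05 and 4.5e-06). *Nrt* was called in neither comparison (-0.28 and 0.11). Of 5 further genes listed beside *eya* and *so*, *Six4* was higher in the testis tip (4.16 and 3.91, adjusted p = 0.00021 and 0.00034) and *dac* lower (-3.49 and -2.94), and *ey*, *toy* and *Optix* were not called. Without testis tip array 1 *toy* (0.72, adjusted p = 0.011) and *Optix* (1.95, adjusted p = 0.00104) were called higher than in female thorax, and *Optix* was -0.70 against male thorax with that array and 0.49 without it, called in neither case.

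**Figure D4:**
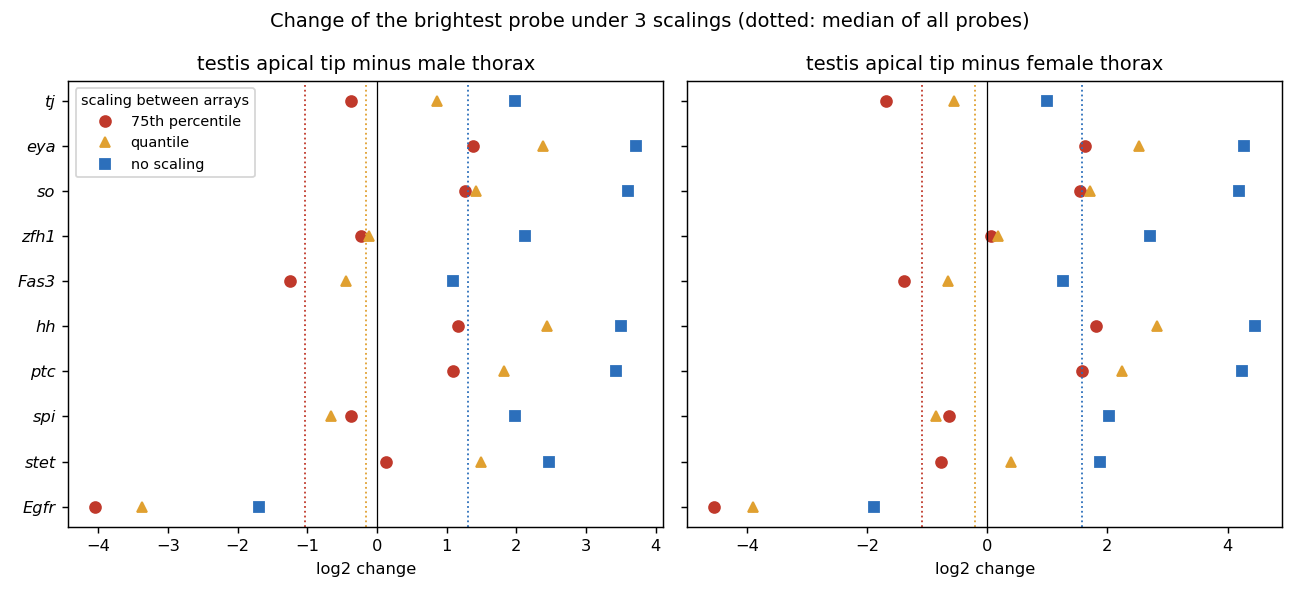
Log2 change of the brightest probe of each gene between the testis tip and male thorax (left) and female thorax (right) after scaling to the 75th percentile, after quantile normalization and without scaling; dotted lines give the median change of all 32162 probes under each. *eya*, *so*, *hh* and *ptc* are right of 0 under all 3 and *Egfr* left of 0, while *tj*, *Fas3* and *spi* are left of 0 after scaling and right of 0 without it.

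The cell types that the samples held besides hub and cyst cells were read from marker lists. In bulk RNA, fewer cells of a type and less RNA per cell cannot be told apart. All 7 spermatid genes and 15 of 16 spermatocyte genes were higher in the testis tip than in either thorax, *bol* being the exception (-1.37 and -0.70), with median changes of 8.62 and 7.20 against male thorax. Of 7 germline genes matched 4 were higher than in male thorax and 3 than in female thorax, among them *aub* (7.31 and 6.66), and 1, *ovo*, was lower (-4.49 and -4.95). Of 4 genes of premeiotic germ cells *bgcn* and *bam* were higher, *Rbp9* was lower (-4.68 and -4.52), and *tut* was lower than in female thorax (-1.48) and not called against male thorax (-0.98). *bgcn* changed by 8.88 against male thorax. Over female thorax, where no array was well above background, it was at least 234-fold higher, or at least 197-fold without testis tip array 1. *bam* was at least 8.23-fold above male thorax. The summed signal of the 4 genes was 2.90 to 3.48 in the testis tip, against 4.21 to 4.63 in male thorax and 4.30 to 4.68 in female thorax. Of the 4, only *Rbp9* (means 3.79 in male and 3.63 in female thorax) and *tut* (2.66 and 3.15) were well above background on all thorax arrays. The summed signal of the spermatocyte list, as a log2 value, was between 6.33 and 6.79 on testis tip arrays, against 2.80 to 3.38 in male thorax and 2.53 to 2.68 in female thorax. All 11 muscle genes were lower, with a summed signal of 1.03 to 2.45 in the testis tip, against 8.39 to 9.13 in male thorax and 8.31 to 9.57 in female thorax, and the flight muscle gene *up* was well above background on none of the tips. Neuronal, glial, hemocyte and tracheal lists were lower throughout after scaling (6 of 6, 2 of 2, 5 of 5 and 1 of 1 genes). Also lower were 4 of 6 fat body genes against male thorax and 5 of 6 against female thorax. *VGlut*, *repo* and *He* were well above background on none of the tips. Without scaling 4 of the 6 neuronal genes turned above 0 against female thorax (*nSyb*, *Syt1*, *Syx1A* and *ChAT*), and *Syt1* also against male thorax. *moody* of the glial list and *srp* of the hemocyte list turned in both comparisons, and *sls* of the muscle list against female thorax. Quantile normalization turned *Syt1* against female thorax, and 5 of the 6 neuronal genes were called lower than female thorax without testis tip array 1.

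The accessory gland list, which marks another somatic tissue of the male tract, was higher in the testis tip. All 4 of its genes were well above background on all 4 tips and on none of the 8 thorax arrays, and their summed signal was 0.12 to 2.07 in the testis tip, against -5.88 to -5.13 in male thorax and -6.74 to -4.51 in female thorax. *Acp36DE* was at least 78.7-fold and *SP*, which encodes Sex Peptide, at least 17.9-fold above male thorax, or at least 63.7-fold and 11.1-fold without testis tip array 1. They stand beside the higher signals of *eya*, *so*, *hh* and *ptc*, and their part in those was not tested.

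Within thorax the arrays of slides B and C, which also held other RNA pools, differed from those of slide A. Thorax arrays of slides B and C were below those of slide A for 15 of the 21 probes, beside 59.7% of all probes. With slide as a term, *eya* was 1.28 (adjusted p = 0.0109) and 1.27 (adjusted p = 0.0115) higher in the testis tip than in male and female thorax, *so* RA probe 1 1.11 (adjusted p = 0.0462) and 1.09 (adjusted p = 0.0501) higher, and *hh* 1.92 (adjusted p = 0.0424) above female thorax. On the shared slide, *eya* was 1.62 above male thorax and 0.93 above female thorax, and *so* RA probe 1 1.45 and 0.75, of which those against male thorax were not called with 2 arrays a tissue (adjusted p = 0.164 and 0.253).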

How the data were processed

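RNA from testis apical tips, male thorax and female thorax was amplified, labelled with 1 dye and hybridized to Agilent *Drosophila* arrays, 4 arrays a tissue, on 3 slides. Each array was scanned by the authors, and the deposited files hold for each spot the background-subtracted processed intensity made by Agilent Feature Extraction, version 9.1 in the submitters' processing notes and 10.5.1.1 in the file headers. The authors also deposited log2 values per tissue, which were unscaled and were used only as an alternative. Spots flagged as outliers were left out and replicate spots averaged on the linear scale. The log2 was then taken and the 75th percentile of each array subtracted. All 32162 noncontrol probes of the 12 arrays were fitted in limma 3.58.1 (lmFit, eBayes) under R 4.3.3, with tissue as the only term. The model had first been run on simulated data as a check of the code. The simulated arrays had independent noise and few changed probes, unlike these arrays. P-values were adjusted by Benjamini-Hochberg within each comparison, and an adjusted p under 0.05 was a call.

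Probes were tied to genes through the locus tag of the transcript name and the RefSeq gene table, which matched 18121 probes to 12539 genes. *vas*, *nos*, *sotv*, *brp*, *grh* and *trh* were not matched. No spot was saturated. A probe counted as well above background only if all its spots were, and where a whole tissue lacked such a reading, a fold was given as a bound against the lowest signal well above background on each array. The number of arrays limits the precision. Array numbers follow slide and position and only name the arrays. Summaries and figures used Python 3.11.15 with pandas 2.3.3, numpy 2.4.6 and matplotlib 3.10.9.

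All members were named with every probe, and from the other lists those called in the same direction against both thoraxes with arrays that did not overlap, ordered by size, plus genes a count of 5 or fewer refers to. *toy*, *Optix*, *tut*, *dome*, *shg*, *Nrt*, *rho*, *ksr*, *bam*, *Imp*, *botv* and *CadN* fall outside that order and were named after their values were seen. The members and lists were chosen with earlier results of these data known. Alternatives were no scaling, quantile normalization, normexp on the median spot signal with an offset of 50, filters on dim probes (log2 7, or well above background on all arrays of a tissue), slide as a term, the shared slide alone, array weights, an intensity trend, the arrays compared alone, the mean over probes, the authors' values, and leaving out each array.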

Additional observations from a re-analysis of the deposited data

Results flagged for a closer look

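In 15 of the 62 sets of 4 arrays tested over the member probes, 1 array lay so far from the other 3 that the share of the range taken by its gap passed the critical value of Dixon for 4 values. Chance alone gives about 1 in 20. Testis tip array 1 was the outlying array in 14 of them, below the others in 6 and above them in 8.

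It was below for *tj* (-8.66, the other tips between -5.05 and -4.73), *zfh1* RC probe 3 (-8.74, others -1.85 to -1.75), *ptc* RA probe 2 (-8.79, others -2.86 to -2.71), *Fas3* RD (-8.68, others -5.42 to -5.18), *Fas3* RB (-8.61, others -5.67 to -5.46) and *Egfr* probe 2 (-5.58, others -3.18 to -2.79). All of these readings but that of *Egfr* probe 2 were under the lowest signal well above background on array 1, -6.52. Array 1 was above for *eya* (-1.33, others -2.97 to -2.71), *so* RA probe 1 (1.49, others -0.37 to -0.33), *zfh1* RC probe 1 (0.31, others -0.85 to -0.67), *Fas3* RA (-1.16, others -3.20 to -3.08), *hh* (-4.73, others -6.31 to -6.27), *ptc* RA probe 1 (0.0200, others -2.25 to -2.02), *spi* (2.33, others 1.27 to 1.36) and *stet* (-3.64, others -6.03 to -5.74). The remaining case was *so* RA probe 2 on testis tip array 3 (-7.45, others -8.98 to -8.74), a probe that was not well above background on any tip. Without array 1 the SD of the other 3 tips had a median of 0.13 over the 21 probes.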

How the results depend on the processing

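No paired analysis was possible because the array numbers follow slide and position and tie no testis tip pool to a thorax pool. Without scaling 8 member probes were higher and 5 lower in the testis tip than in male thorax, and 10 higher and 6 lower than in female thorax, beside 48.6% and 19.9%, and 52.7% and 17.4%, of all probes. The signs that turned without scaling were those of *tj* (1.98), *zfh1* (2.12), *Fas3* (1.09) and *spi* (1.97) against male thorax, *tj* (1.00), *Fas3* (1.26), *spi* (2.02) and *stet* (1.88) against female thorax, and *Fas3* (0.17) and *spi* (0.0473) between male and female thorax. The authors' values turned the same ones, by the same amounts except for *tj* (2.91 and 1.38). Quantile normalization called 4 member probes higher than male thorax, beside 27.8% of all probes, and turned *tj* (0.86) and, against female thorax, *stet* (0.40). With normexp 1 member probe was higher in each testis comparison, beside 18.6% and 16.8% of all probes. It turned *hh* (-0.61) and *stet* (-0.60) against male thorax, *zfh1* (-0.0472) and *hh* (-1.43) against female thorax, and *eya* (-0.46), *hh* (-0.82) and *ptc* (-0.0693) between thoraxes.

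On the shared slide alone, with fewer arrays, 11796 probes were called against male thorax (22099 in all arrays) and 0 member probes were higher in limma, also 0 at an unadjusted p under 0.05, beside 12.5% of all probes called higher, with *zfh1* at 0.17 and, against female thorax, *tj* at 0.10. Array weights gave 5 member probes higher than male thorax (29.9% of all probes), *tj* at 0.39 and *stet* at -0.42, *zfh1* at -0.35 against female thorax, and 4425 probes called and 1 member lower, *tj*, between male and female thorax. Slide as a term turned *zfh1* (0.0521) against male thorax and *eya* (-0.0124) and *so* (-0.0234) between thoraxes. The mean over a gene's probes turned *so* (-0.93 and -0.42) and, against female thorax, *zfh1* (-1.27). With 8 arrays in the fit 207 probes differed between thoraxes.

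After the data were seen, scaling was also dropped without testis tip array 1, which gave 11 member probes higher and 6 lower than male thorax, 10 and 6 than female thorax, beside 54.1% and 21.5%, and 57.8% and 19.1%, of all probes, and 207 probes between thoraxes. Quantile normalization without that array gave 7 member probes higher than male thorax (32.3% of all probes) and 1179 probes between thoraxes. Fits that each left out 1 array called 20548 to 24807 probes, 1 to 3 member probes higher and 9 to 13 lower against male thorax, 21132 to 26151 probes, 3 to 6 and 10 to 12 against female thorax, and 90 to 720 probes between thoraxes, 720 without testis tip array 1. *tj* then ranged from -0.74 to 0.57 and *stet* from -0.43 to 0.37 against male thorax, and *zfh1* from -0.21 to 0.18 against female thorax. The cause of these differences was not tested. No alternative run turned the sign of *Egfr* in the testis comparisons.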

Other observations

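The probes most like *tj* and *hh* over the arrays were sought among 15858 probes well above background on all 4 arrays of at least 1 tissue, by Pearson's r of the scaled log2 signal, as a description. For *tj*, over 11 arrays, these were *Cpr76Bc* (r = 0.972), *CG31495* (0.967), *CG6686* (0.957), *CG14395* (0.957) and *His1:CG31617* (0.956). For *hh*, over 12 arrays, they were *Mayo* (0.938), *Fa2h* (0.917), *Jhbp6* (0.912), *CG13255* (0.900) and *alpha-Est4* (0.886). The arrays share slides, and testis tip array 1 is the lowest value of *tj* and the highest of *hh*.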
